A study of Homo sapiens with 4 samples.

Results

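HOXB13 binding was examined at 5 genes in LNCaP cells: KDM1A, RCOR1, HDAC1 and HDAC2, which encode the LSD1 demethylase and partners of its CoREST complex, and GATA2. A peak was counted at a gene when its summit, the position of highest signal, lay within 50 kb of the gene in the hg19 build. By this rule 20 peaks were found among the 68049 peaks of the GSK2879552 list, and 0 among the 3507 peaks listed for vehicle. Only the placed chromosomes, 1 to 22, X and Y, were used. HOXB13 was immunoprecipitated from LNCaP, an established androgen-sensitive line of prostate cancer cells, and the recovered DNA was sequenced. One group was treated with GSK2879552, an inhibitor of LSD1, at 50 µM for 4 hours, and the other was given vehicle. For all samples the labels give 10% FBS for maintenance of the cells and 5% CSS, so abbreviated there, for the medium of the treatment. The treatment text of the vehicle samples names the inhibitor too, and they were taken as vehicle from their titles and descriptions. Each group had 2 sequencing lanes, labelled technical replicates, and 1 peak list for both lanes. Neither treatment was replicated. No value has an error between cultures, and no difference between the treatments could be tested. Intervals cover counting error only.

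LSD1, the product of KDM1A, removes methyl groups from histone H3 and is the target of the inhibitor. RCOR1 encodes CoREST, the scaffold that lets LSD1 act on nucleosomes, and HDAC1 and HDAC2 are the histone deacetylases of the same complex. GATA2 is a zinc finger transcription factor that opens chromatin for the androgen receptor in prostate cancer cells. HOXB13 is a homeobox factor of the prostate that binds together with the androgen receptor at many enhancers. A peak near a gene shows where HOXB13 was recovered. Whether the peak bears on that gene was not measured here.

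The lists differed in background, and totals of sequenced tags were not used here. The pileup of overlapping tags at each summit and the local background behind it were solved from the p-value and the fold enrichment deposited for each peak. The fold enrichment, here called enrichment, is the ratio of the pileup to the background, with 1 tag added to both. The commonest background was 2.79 tags in the GSK2879552 list and 0.443 tags in the vehicle list, 6.31 times apart. The lowest pileup of any listed peak was 10 tags with GSK2879552 and 5 tags with vehicle. List length, background and treatment differed together and cannot be told apart, nor can any difference in depth. Backgrounds are those of the peak caller, and any input control behind them was not given in the sources used here.

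HDAC1 had the most GSK2879552 peaks of the 5 genes, with 7. RCOR1 had 5, HDAC2 and GATA2 had 3 each, and KDM1A had 2. Of the 20 summits, 10 lay inside a gene, 7 upstream of a start and 3 past an end. Only RCOR1 and HDAC1 had a summit within 1 kb of the gene start. KDM1A and HDAC2 had no summit inside the gene. Starts and ends are those of the hg19 gene coordinates, and strands those of RefSeq. Exons and introns of this build were not used here.

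**Figure D1:**
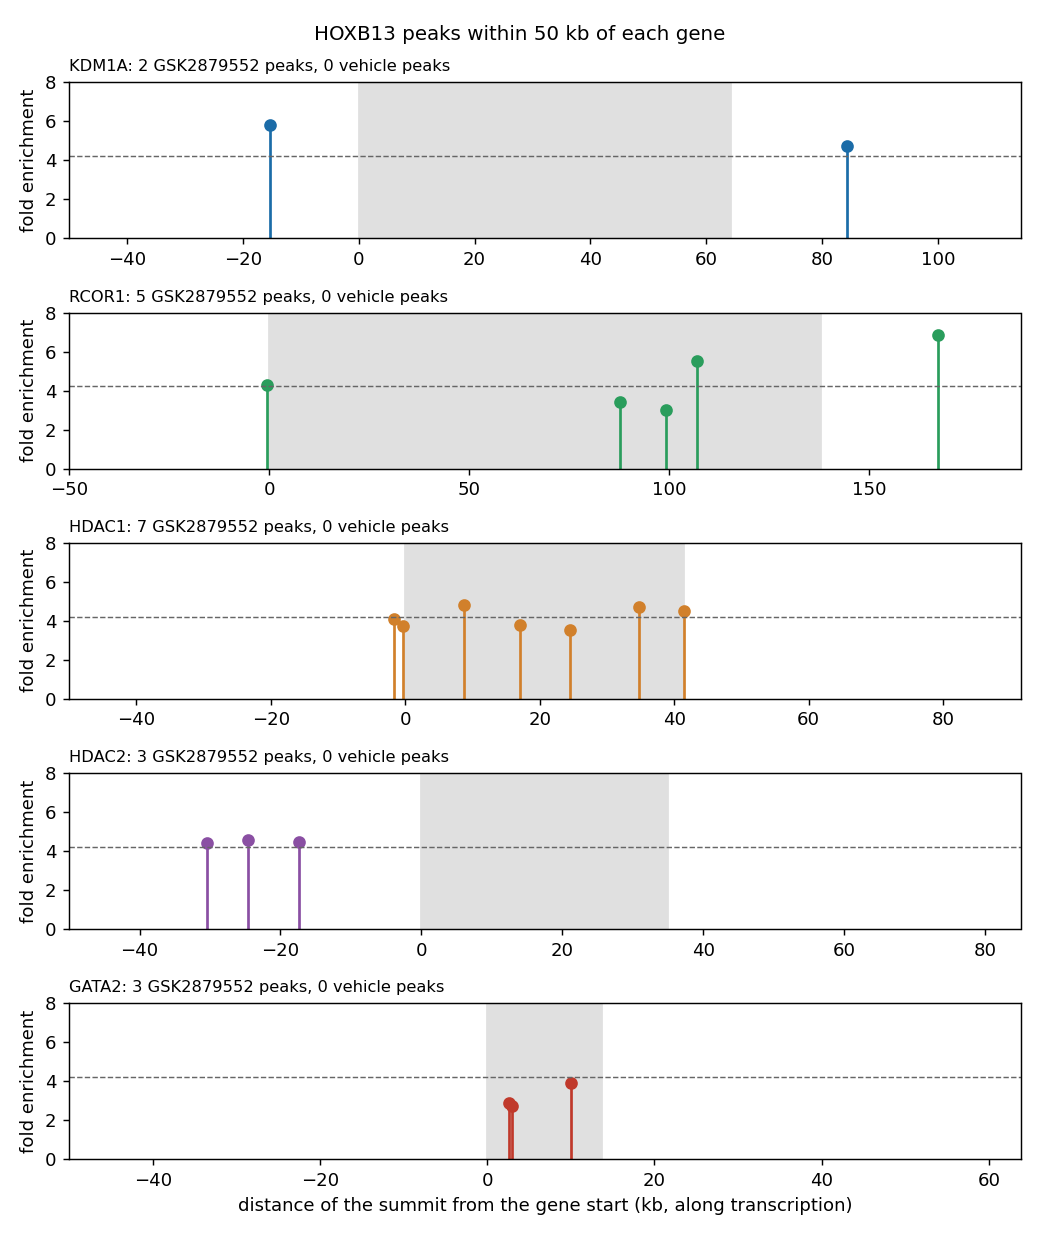
Positions and enrichment of the HOXB13 peaks at the 5 genes. Each stem is 1 GSK2879552 peak, placed by the distance of its summit from the gene start in kb along transcription; grey marks the gene, the dashed line is the median enrichment of the whole list (4.22), and no vehicle peak lay in any panel. The 7 HDAC1 peaks run from just before the start to the end of the gene, while the KDM1A and HDAC2 peaks lie outside the genes.

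The RefSeq sequences just before the starts of RCOR1 and HDAC1 are shown because these were the genes with a summit within 1 kb of the start. Each runs for the 250 bases before the start, along transcription, from the GRCh38.p14 build, with CG pairs in capitals. The peaks lie farther upstream than these bases when measured from the hg19 starts, between 447 and 603 bp before RCOR1 and between 265 and 446 bp before HDAC1.
RCOR1, chromosome 14, plus strand: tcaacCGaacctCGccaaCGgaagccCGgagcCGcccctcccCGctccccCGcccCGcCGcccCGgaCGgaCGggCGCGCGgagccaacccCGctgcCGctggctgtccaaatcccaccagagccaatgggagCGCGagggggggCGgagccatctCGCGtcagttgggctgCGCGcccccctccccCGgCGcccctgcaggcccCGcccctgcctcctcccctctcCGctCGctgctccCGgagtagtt
HDAC1, chromosome 1, plus strand: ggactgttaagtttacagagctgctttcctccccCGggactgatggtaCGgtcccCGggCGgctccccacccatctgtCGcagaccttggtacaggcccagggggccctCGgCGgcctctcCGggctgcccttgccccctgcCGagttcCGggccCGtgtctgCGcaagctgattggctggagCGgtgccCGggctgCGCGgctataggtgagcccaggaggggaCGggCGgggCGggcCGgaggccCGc
The RCOR1 sequence holds 30 CG pairs and the HDAC1 sequence 21, against a median of 11 (quartiles 3 and 23) over 35116 RefSeq promoter sequences of this length. G and C make up 76.4% and 71.6% of their bases, against a median of 58.0%. A HOXB13 motif in the forms CAATAAA and TCGTAAA, the GATA motif AGATAA and the FOX motif GTAAACA were searched on both strands. None of the 4 occurred in these 2 sequences or in those of KDM1A, HDAC2 and the 2 starts of GATA2. They occurred in 3.66%, 0.444%, 9.17% and 2.98% of all promoter sequences in that order. The search covered only these bases and not the peaks, since no hg19 genome was used here.

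At HDAC1, on chromosome 1 at 32757708 to 32799224, HOXB13 peaks lay along the whole gene. The first peak, at 32755992 to 32756194, had its summit 1619 bp upstream of the start, an enrichment of 4.11 and a pileup of 22 tags over a background of 4.60. The second, at 32757262 to 32757443, lay nearest to the start, 347 bp upstream, with an enrichment of 3.72 and a pileup of 21 over 4.92. Both stood on a background above that of the other 5 HDAC1 peaks, where it ran between 2.81 and 3.54 tags. Inside the gene, the peak at 32766404 to 32766654 was the most enriched of the locus, with 4.81 and a pileup of 18, at 8.81 kb from the start. The peak at 32792318 to 32792465 followed with an enrichment of 4.73 and a pileup of 17. The other 2 peaks inside the gene, 17.1 and 24.5 kb from its start, had 3.76 and 3.52 at a pileup of 15 tags each. The last peak, at 32799127 to 32799436, had its summit 12 bp past the end of HDAC1, an enrichment of 4.51 and a pileup of 17. In RefSeq, MARCKSL1, which encodes a membrane-bound actin-binding protein, is the next gene on that side. All 7 summits lay within 43.1 kb of each other, and the flanks farther out had none.

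RCOR1, on chromosome 14 at 103058996 to 103196913, had peaks near its start, inside the gene and past its end. The peak at the start, at 103058393 to 103058549, had its summit 511 bp upstream, an enrichment of 4.29 and a pileup of 20 tags over 3.89. No peak followed for the next 88.4 kb. A group of 3 peaks then lay between 87.9 and 107 kb from the start. Their enrichments were 3.41, 3.02 and 5.49 and their pileups 12, 13 and 20, so the last, at 103165863 to 103166071, stood above its neighbours. The highest enrichment at any of the 5 genes was at 103225939 to 103226311, 29.2 kb past the end of RCOR1, with 6.85 and a pileup of 25 over 2.79. In RefSeq, TRAF3, which encodes an adaptor of immune receptor signalling, is the next protein-coding gene on that side.

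KDM1A, on chromosome 1 at 23345941 to 23410184, had a single HOXB13 peak on each side and none in the gene. The peak at 23330464 to 23330737 had its summit 15.3 kb upstream of the start, an enrichment of 5.80 and a pileup of 21 tags, the next highest enrichment of the 20 after the one past RCOR1. The peak at 23430180 to 23430318 lay 20047 bp past the end, on the side of LUZP1, which overlaps the end of KDM1A in RefSeq, with an enrichment of 4.74 and a pileup of 17. It was 139 bp wide, the least width in the list. Both stood on a background of 2.79 tags, the genome-wide value.

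HDAC2, on chromosome 6 at 114257320 to 114292359 and read from the minus strand, had its 3 peaks on the upstream side. They lay 17.4, 24.6 and 30.4 kb before the start, at 114309700 to 114309841, 114316872 to 114317179 and 114322666 to 114322884. Their enrichments were close, at 4.45, 4.56 and 4.42, with pileups of 16, 21 and 18 tags over backgrounds of 2.82, 3.82 and 3.29. The middle peak thus had the most tags and the highest background. The nearest peak on the downstream side lay 51.5 kb past the end of HDAC2, just outside the 50 kb, with an enrichment of 4.57, and the farthest counted from any of the 5 genes was that at 30.4 kb.

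GATA2, on chromosome 3 at 128198265 to 128212030 and read from the minus strand, had its 3 peaks inside the gene, and they were among the weaker ones of the 20. The peak at 128201951 to 128202089 had its summit 10.0 kb from the start, an enrichment of 3.92 and a pileup of 15 tags over 3.09. The other 2, at 128209081 to 128209219 and 128209275 to 128209454, were separated by 55 bp, with summits 2.92 and 2.62 kb from the start. They had the lowest enrichments of the 20, 2.74 and 2.89, at pileups of 15 and 16 over backgrounds of 4.84 and 4.88. Of all GSK2879552 peaks, 0.669% and 1.27% had a lower enrichment than this pair. In GRCh38.p14, RefSeq gives GATA2 a second start 4.67 kb inside the first, farther in than either summit of the pair. GATA2-AS1, an antisense gene, overlaps GATA2 in RefSeq, and a peak has no strand that would assign it to either.

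Farther from GATA2, at 56 to 97 kb past its end in the direction of DNAJB8, HOXB13 peaks had higher enrichments, from 4.48 upward, than the 3 within 50 kb. The planned wider flank of 100 kb added 5 GSK2879552 peaks, none of them on the upstream side. The tallest of them, the peak at 128101191 to 128101669, had an enrichment of 12.1 and a pileup of 94 tags over 6.87 with GSK2879552. A vehicle peak overlapped it at 128101308 to 128101590, with an enrichment of 7.91 and a pileup of 16 over 1.15. Each enrichment is relative to the background of its own library, and the added tag lowers it more where the background is lower. The enrichments of this site in the lists are therefore not comparable. The vehicle peak at this site was the only one within 100 kb of any of the 5 genes. The other 4 GSK2879552 peaks there had enrichments of 4.48 to 6.54. The wider flank of HDAC1 added 1 peak, at 32892649 to 32892907 and 93.5 kb past the end, with an enrichment of 7.57 and a pileup of 29 tags, above the 4.81 of the highest within 50 kb and above each of the 20. That of KDM1A added 1 with 5.54, between the values of its 2 nearer peaks. Those of RCOR1 and HDAC2 added 4 each, with enrichments of 3.40 to 4.00 and of 3.19 to 4.57.

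Against equal windows of the same chromosome, HDAC1 stood in the upper part of the range with flanks of 50 kb, KDM1A in the lower part and the other genes near the middle. The places moved with the settings. The windows were as long as the gene with its flanks and were tiled from the first base of the chromosome. On chromosome 1, 87.1% of 1761 windows of 142 kb had fewer than the 7 peaks of HDAC1, 5.57% had as many and 7.33% had more, around a median of 3. For KDM1A, 22.4% of 1517 windows had fewer than its 2 peaks and 67.4% had more, around a median of 4. For RCOR1, 40.4% of 450 windows on chromosome 14 had fewer than its 5 peaks, around a median of 6. For HDAC2, 44.5% of 1266 windows on chromosome 6 had fewer than its 3, and for GATA2, 43.4% of 1739 windows on chromosome 3, both around a median of 3. The place of HDAC1 moved to 97.9% with flanks of 20 kb, to 66.4% with flanks of 100 kb, and to 0% when only peaks enriched 5 times or more counted, since it had none. GATA2 moved to 79.7% with flanks of 20 kb and to 71.8%, above HDAC1, with flanks of 100 kb. HDAC2 moved to 27.5% with flanks of 20 kb, to 64.2% with 100 kb and to 72.3% for peaks with a −log10 q of at least 5. KDM1A moved to 8.69% when windows without a peak were left out, and to 42.8% for peaks enriched 5 times or more. GATA2 and HDAC2 had no peak so enriched, and their places moved to 0%. At a −log10 q of at least 5, KDM1A moved to 41.7% and GATA2, which had no such peak, to 0%. Without empty windows RCOR1 moved to 27.0%. A gene with no peak left can only have 0%, whatever its windows hold, so each 0% here gives no place. On chromosome 1, 42.8% of the windows for KDM1A also had no peak enriched 5 times or more. Windows were not matched for genes or unsequenced stretches, and the part these play was not tested.

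**Figure D2:**
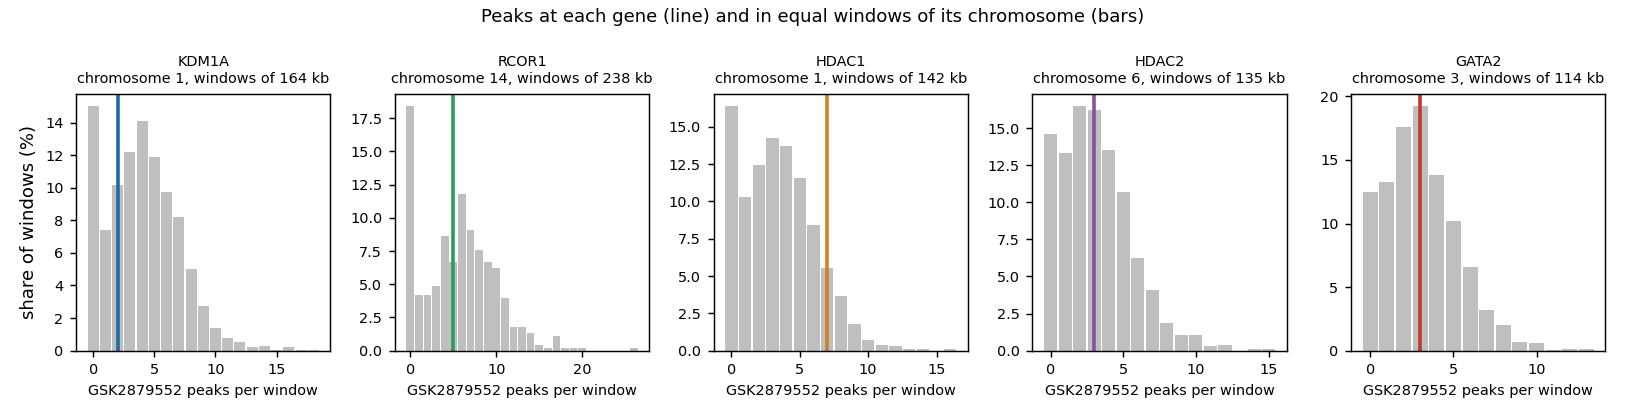
HOXB13 peaks at each gene beside equal windows of its chromosome. Bars give the share of windows in percent with each number of GSK2879552 peaks, and the coloured line is the number at the gene. The line of HDAC1 lies at 7 where the median window has 3, that of KDM1A at 2 where it has 4, and those of HDAC2 and GATA2 lie at the median.

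The 20 peaks were of ordinary strength for the GSK2879552 list. Their median enrichment was 4.36 (quartiles 3.67 and 4.73), against 4.22 (3.69 and 5.02) over the whole list, and their median pileup 17 tags, against 18. An enrichment of 5 or more was reached by 3 of the 20, against 26.6% of the whole list: the peak upstream of KDM1A, 1 peak inside RCOR1 and the one past its end. A −log10 q of at least 5 was reached by 12 of the 20, against 54.8% of the list. The tallest had 25 tags, while the list reached 278. The peaks were a median of 193 bp wide, against 199 bp, and 4 of the 20 had the least width of 139 bp, against 10.9% of the list. None was among the 3507 peaks of lowest p-value in the GSK2879552 list, a number equal to the length of the vehicle list.

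Pileup and enrichment ordered the peaks differently, and the background they stood on varied. The 5 summits within 3 kb of a start, at RCOR1, HDAC1 and GATA2, stood on backgrounds of 3.89 to 4.92 tags, with a median of 4.84. The other 15 stood on 2.79 to 3.82 tags, with a median of 2.95, so the ranges did not overlap. Pileups did overlap, with 15 to 22 tags near a start and 12 to 25 elsewhere. At the same pileup of 21 tags, the peak beside the HDAC1 start had an enrichment of 3.72 and the peak upstream of KDM1A 5.80. The 3 kb limit was set after the values were seen, and 2 pairs of these 5 peaks share a neighbourhood and so its background. Starts of neighbouring genes were not considered, so the other 15 were not shown to lie away from every start. Of the whole list, 30.4% of peaks stood on a background of at least 3.89 tags. The reason for the higher background was not tested.

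**Figure D3:**
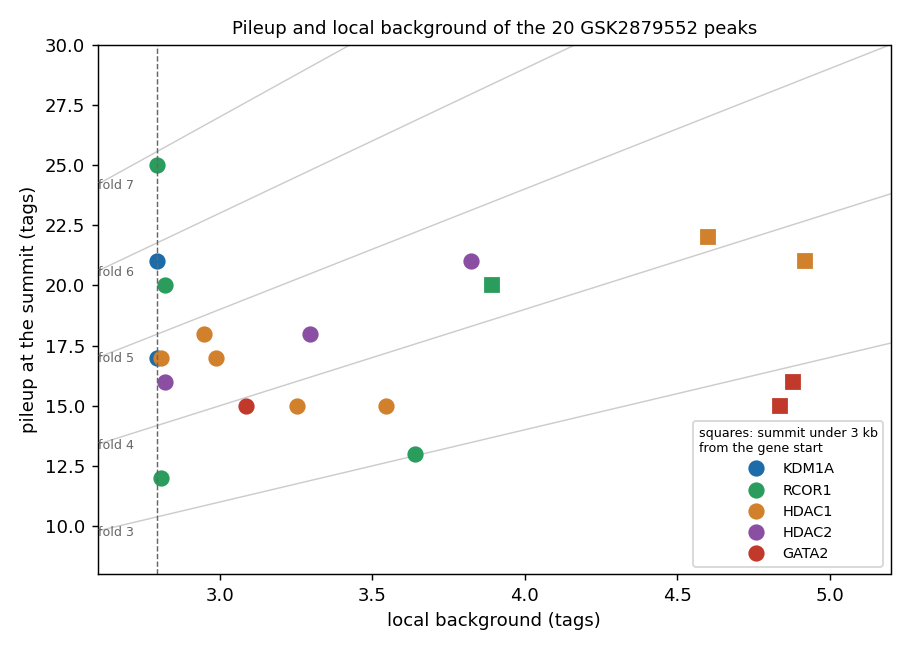
Pileup at the summit against local background, both in tags, for the 20 GSK2879552 peaks, coloured by gene; squares have a summit within 3 kb of the gene start. Grey lines join equal enrichment and the dashed line is the genome-wide background of 2.79 tags. The squares lie to the right, at 3.89 tags or more, with pileups in the range of the circles.

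No vehicle peak lay at any of the 5 genes, which is also the most frequent state of a window. In the vehicle list, 85.0% of the equal windows for KDM1A held no peak, 77.3% of those for RCOR1, 86.4% for HDAC1, 88.3% for HDAC2 and 87.5% for GATA2. Likewise 0 of the 20 GSK2879552 peaks were overlapped by a vehicle peak, against 4.59% of the whole list. A count of 0 of 20 allows a share of up to 15.0%, and the exact 95% binomial interval ends at 16.8%, so the share was not told apart from that of the list. Among the 63012 GSK2879552 peaks within the fold range of the 20, from 2.74 to 6.85, 2.15% had a vehicle peak. Among those within their pileup range, 12 to 25 tags, it was 1.002%. The vehicle list had a median enrichment of 5.88 with a lower quartile of 5.19. The 1 tag added to pileup and background weighs more on its lower background, so these values set no threshold for the 20 peaks. No vehicle peak was thus listed at these genes, in a list of lower background, and the lack of one is no measure of HOXB13 binding with vehicle.

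**Figure D4:**
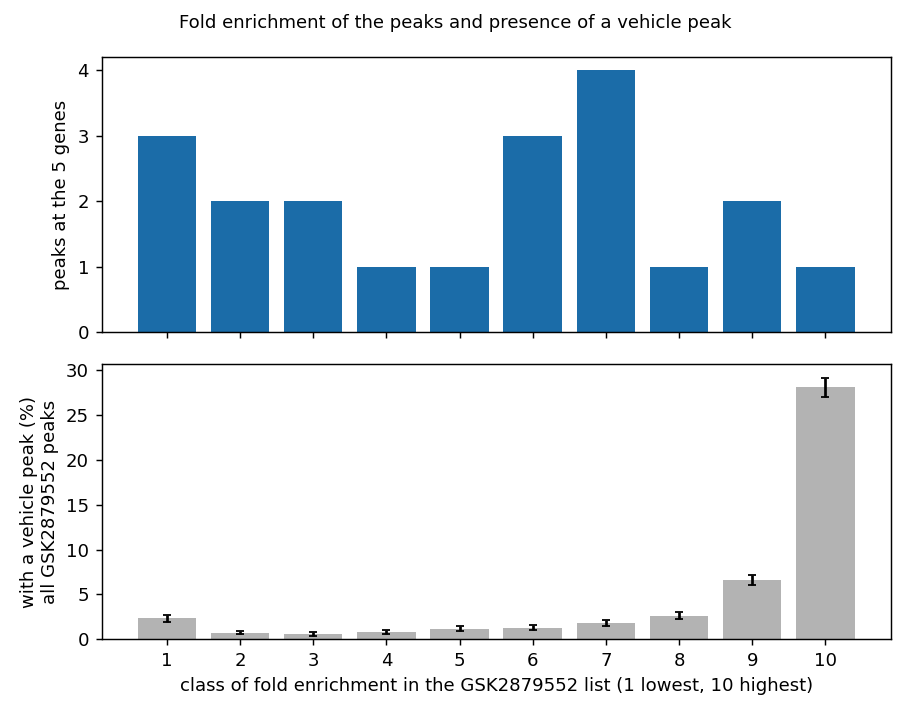
Fold enrichment of the 20 peaks and presence of a vehicle peak. The upper bars count the peaks at the 5 genes in each of 10 equal classes of enrichment of the GSK2879552 list; the lower bars give the share in percent of all GSK2879552 peaks of the class that a vehicle peak overlapped, with exact 95% binomial intervals. The highest class, where the share is 28.1%, holds 1 of the 20, and classes 2 to 7, where it is 0.558% to 1.81%, hold 13. Class 1 holds 3 at a share of 2.32%, and classes 8 and 9 hold 1 and 2 at 2.62% and 6.57%. Each class holds 6804 or 6805 peaks of the list and 1 to 4 of the 20, which are spread over the whole range.

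The vehicle list was sparse, with 290 peaks on chromosome 1, 120 on chromosome 14, 173 on chromosome 6 and 240 on chromosome 3. The usual distance from a gene to a vehicle peak was not computed. The nearest vehicle peaks lay 1949 kb from KDM1A, 303 kb from RCOR1, 394 kb from HDAC1, 559 kb from HDAC2 and 96.9 kb from GATA2. Each overlapped a GSK2879552 peak, as did 91.2% of the whole vehicle list. These partners were taller than any of the 20, with 32, 72, 57, 56 and 94 tags in the same order. They were picked by having a vehicle peak. Over the GSK2879552 list, 1.002% of peaks of 12 to 25 tags had one, against 4.59% of all peaks. The contrast with the 20 is therefore not particular to these genes. The nearest vehicle peaks themselves had pileups of 8, 12, 10, 11 and 16 tags. Both lists thus had a peak at the site nearest each gene where the vehicle list had any, all beyond the 50 kb.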

How the data were processed

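HOXB13 chromatin immunoprecipitation with sequencing was analysed from the 2 deposited peak lists, 1 per treatment, each covering both lanes per the labels. MACS2 2.1.2, BWA 0.7.2 and SAMtools 0.1.18 are listed in the submitters' processing notes with no role, beside the builds GRCh37 and hg19. Any input control and the calling options were not given in the sources used here. The deposited score equals the whole part of 10 times −log10 q in 100% of rows. The deposited fold enrichment, a ratio to the local background, and the deposited −log10 p and −log10 q are the authors' values per peak and describe, rank or filter peaks within a list only. No signal track was used.

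Peaks on other sequences, 676 with GSK2879552 and 215 with vehicle, were left out. The whole pileup k and the background λ of a peak were those for which (k + 1)/(λ + 1) gave the deposited fold and the Poisson chance of more than k tags gave the deposited −log10 p, within 0.001 for 100% of peaks of both lists, and the solver was tested on simulated data. Overlap meant at least 1 bp. Coordinates are hg19, counted from 1. RefSeq tables of GRCh38.p14 gave strands, neighbours' names and promoter sequences for all 5 genes, with no conversion between builds. Named were all peaks at genes with at most 6, and elsewhere every vehicle peak, the 3 GSK2879552 peaks of highest fold enrichment and the one nearest the start. The remaining HDAC1 peaks, those past 50 kb and the nearest vehicle peaks were added after their values were seen. Other genes of the complex were planned only with an hg19 annotation and were not analysed here. The genes, lists and comparisons were chosen with earlier results of these data known. Python 3.11.15, numpy 2.4.6, pandas 2.3.3 and scipy 1.17.1 were used. Alternatives covered flanks, thresholds, overlap and windows.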

Additional observations from a re-analysis of the deposited data

How the results depend on the processing

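Of 47 alternative values, 19 stayed within the counting interval or within 1.5 times the reported count, among them every alternative of the share of GSK2879552 peaks with a vehicle peak (0% to 2.86%). The 20 GSK2879552 peaks became 35 with flanks of 100 kb, 3 at a fold enrichment of at least 5 and 12 at a −log10 q of at least 5. They became 0 when the list was limited to the length of the vehicle list, which kept 3507 of the 68049 peaks. So small a part does not set a count of 0 of 20 apart from the list. The 0 vehicle peaks became 1 with flanks of 100 kb. The share of equal windows with fewer peaks moved most. With flanks of 20 kb it was 97.9% for HDAC1, 27.5% for HDAC2 and 79.7% for GATA2, and with flanks of 100 kb 20.04% for KDM1A, 51.1% for RCOR1, 66.4% for HDAC1, 64.2% for HDAC2 and 71.8% for GATA2. At a fold enrichment of at least 5 it was 42.8% for KDM1A, 58.0% for RCOR1 and 0% for HDAC1, HDAC2 and GATA2, which then had no peak. At a −log10 q of at least 5 it was 41.7%, 47.6%, 82.9%, 72.3% and 0% for KDM1A, RCOR1, HDAC1, HDAC2 and GATA2. There GATA2 had no peak either. A gene with no peak left can only have 0%, so these values give no place. Without windows that held no peak, the share was 8.69%, 27.0%, 84.6%, 35.0% and 35.3% in the same order of genes. HDAC1 was above the other 4 genes with flanks of 20 or 50 kb but below GATA2 with 100 kb. The cause of these shifts was not tested beyond the number of peaks each setting keeps. No paired analysis was possible because each treatment has 1 peak list for both lanes. For the same reason no lane could be left out.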
